A study of Mus musculus with 2 samples.

Results

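Chemokines and their receptors were compared between liver RNA of male mice that had received control virus (Ad-Ctrl) and of those that had received virus for overexpression of the microRNA miR-378 (Ad-378). Members were chosen by gene symbol alone: every Ccl or Cxcl ligand, every Ccr, Cxcr or Ackr receptor, and Cx3cl1, Cx3cr1, Pf4, Ppbp, Xcl1 and Xcr1. They came to 59 of the 20659 genes with a named probe on the array, 36 ligands and 23 receptors, read by 70 of 39429 probes. Another 10 symbols that fit the rule had no matched probe, namely Ccl21a, Ccl21b, Ccl21c, Ccl21d, Ccl27b, Cxcl11 and the pseudogenes Ccl16-ps, Ccl19-ps1, Ccl19-ps2 and Ccl19-ps3.

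The study, per its title, concerns miR-378 as a microRNA that responds to thyroid hormone and its part in bile acid synthesis and cholesterol balance. Both groups received 1e9 plaque-forming units of adenovirus by tail vein when 8 weeks old, so virus exposure is shared and the insert differs. Livers of 5 mice were pooled in each group and the pool was read on 1 array, and the strain is not given in the sources used here. The protocols put collection at 2 weeks after injection for both groups, whereas another label of the Ad-378 sample gives 3 weeks, and which holds is not settled. With 1 array per group there is no spread between replicates, so differences below lack a check on replicates and carry no p-value.

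Chemokines are small secreted proteins that guide leukocytes along concentration gradients, and they are grouped as CC, CXC, XC or CX3C by the spacing of cysteines near their start. Most signal through G protein-coupled receptors on leukocytes, while the atypical receptors (Ackr) bind and take up chemokines without driving migration through G proteins. In the liver, resident macrophages (Kupffer cells), endothelium, stellate cells and hepatocytes release chemokines in infection and injury, and these draw in monocytes, neutrophils and lymphocytes.

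The array holds 43020 gene spots, of which 63.1% (Ad-Ctrl) and 65.7% (Ad-378) exceeded background clearly, and 0 were saturated. All 14 hepatocyte marker genes were well above background in both pools. Signals below are the scanner's processed signals before scaling. Each log2 difference is Ad-378 minus Ad-Ctrl after each array was divided by its 75th percentile, which was 800.1 for Ad-Ctrl and 695 for Ad-378, and the scanner error beside it covers measurement on the array only. A level could be set in both pools for 14288 genes. The median log2 difference of these genes was 0.040, and the central 95% lay from -1.29 to 1.05.

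Several inflammatory ligands were far higher in the Ad-378 pool, and several receptors were lower. Of 23 ligands measured in both pools, 4 were higher by 2-fold or more, against 2.83% of all genes, and 3 were lower by as much, against 4.52%. In either direction, 11 of the 37 members measured in both pools were 2-fold apart, against 7.36% of all genes. Of a further 5 ligands detected in Ad-378 alone, 3 were higher by a bound of at least 2-fold, against 14.9% of all such genes. Of 14 receptors measured in both pools, 4 were lower by 2-fold or more, against 4.52% of all genes. Of 2 receptors seen only in Ad-Ctrl, 1 had a bound of at least 2-fold lower, near the 37.3% of all such genes. The count of receptors higher by 2-fold or more was 0, which for 14 genes is near the 2.83% of all genes. The median difference was 0.018 for ligands and -0.43 for receptors. With genes seen in 1 pool only set at their bound, the medians were 0.018 and -0.39. Scaling on the detected probes alone gave 3 ligands higher and 4 lower, because Ccl7 (0.998) and Ccl24 (-1.02) crossed the line.

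The macrophage ligands Ccl3 and Ccl4 were far higher in Ad-378, and Ccl5 was not. Ccl4, or MIP-1 beta, a macrophage product that attracts monocytes and T cells, read 118 in Ad-Ctrl and 1236 in Ad-378. Its log2 difference was 3.59 (scanner error 0.21), a 12.0-fold higher level in Ad-378, and was 2.99 after normexp. Ccl3, or MIP-1 alpha, which also acts on CCR1, had signals of 166 and 1225 and a log2 difference of 3.09 (scanner error 0.21). These were the furthest apart of the 37 members measured in both pools. Ccl5, or RANTES, made mainly by T and NK cells, had signals of 3238 and 3108 and a difference of 0.14, within its scanner error of 0.20. Markers of T and NK cells (median -0.45 over 13 genes, 9 of them lower) had a summed level of 13.4 (Ad-Ctrl) against 13.1 (Ad-378), in multiples of the 75th percentile of each array, and their part in these results was not tested. Such sums weigh the brightest probes most.

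CC ligands of the monocyte-attracting (MCP) type were mostly higher as well. Ccl2, or MCP-1, the main such ligand, was printed in 10 spots per array. Its spots ran from 658 to 828 in the Ad-Ctrl pool, with a median of 696, and from 1270 to 2093 in the Ad-378 pool, with a median of 1556. The log2 SD over spots was 0.11 and 0.24. These spots repeat 1 probe on the array of each pool, so they measure spread within an array and not between mice. The difference between the mean log2 signals of Ccl2, after scaling, was 1.37. Ccl7, or MCP-3, had signals of 281 and 502 and a difference of 1.04, just past 2-fold, which was 0.87 on the deposited unsubtracted values. Ccl12, or MCP-5, was well above background only in the Ad-378 pool, with 110 against 16.3, and its bound there was 7.71-fold. That bound, 2.95 on the log2 scale, was 1.57 on the unsubtracted values and 1.35 after normexp. Such a bound divides the brighter pool's scaled level by the other pool's own level or, where higher, by the dimmest detected level of that array (15.2 for Ad-Ctrl and 11.3 for Ad-378, before scaling). For Ccl12 the own level was the higher, so its bound is the plain ratio (scanner error 0.36 on the log2 scale) and not a lower limit. The Ad-Ctrl signal of Ccl12 lay above the dimmest detected level yet was not detected, so the other bounds are not strict lower limits either. Among all genes seen only in the Ad-378 pool, 14.9% had a bound of at least 2-fold. Ccl8, or MCP-2, had 66.1 and 58.1 and a difference of 0.018, whose sign turned with the scaling. Monocyte markers did not share this direction: 5 of 7 were lower in Ad-378, with a median of -0.63 and a summed level of 9.80 against 6.78, and Fcnb was not above background.

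**Figure D1:**
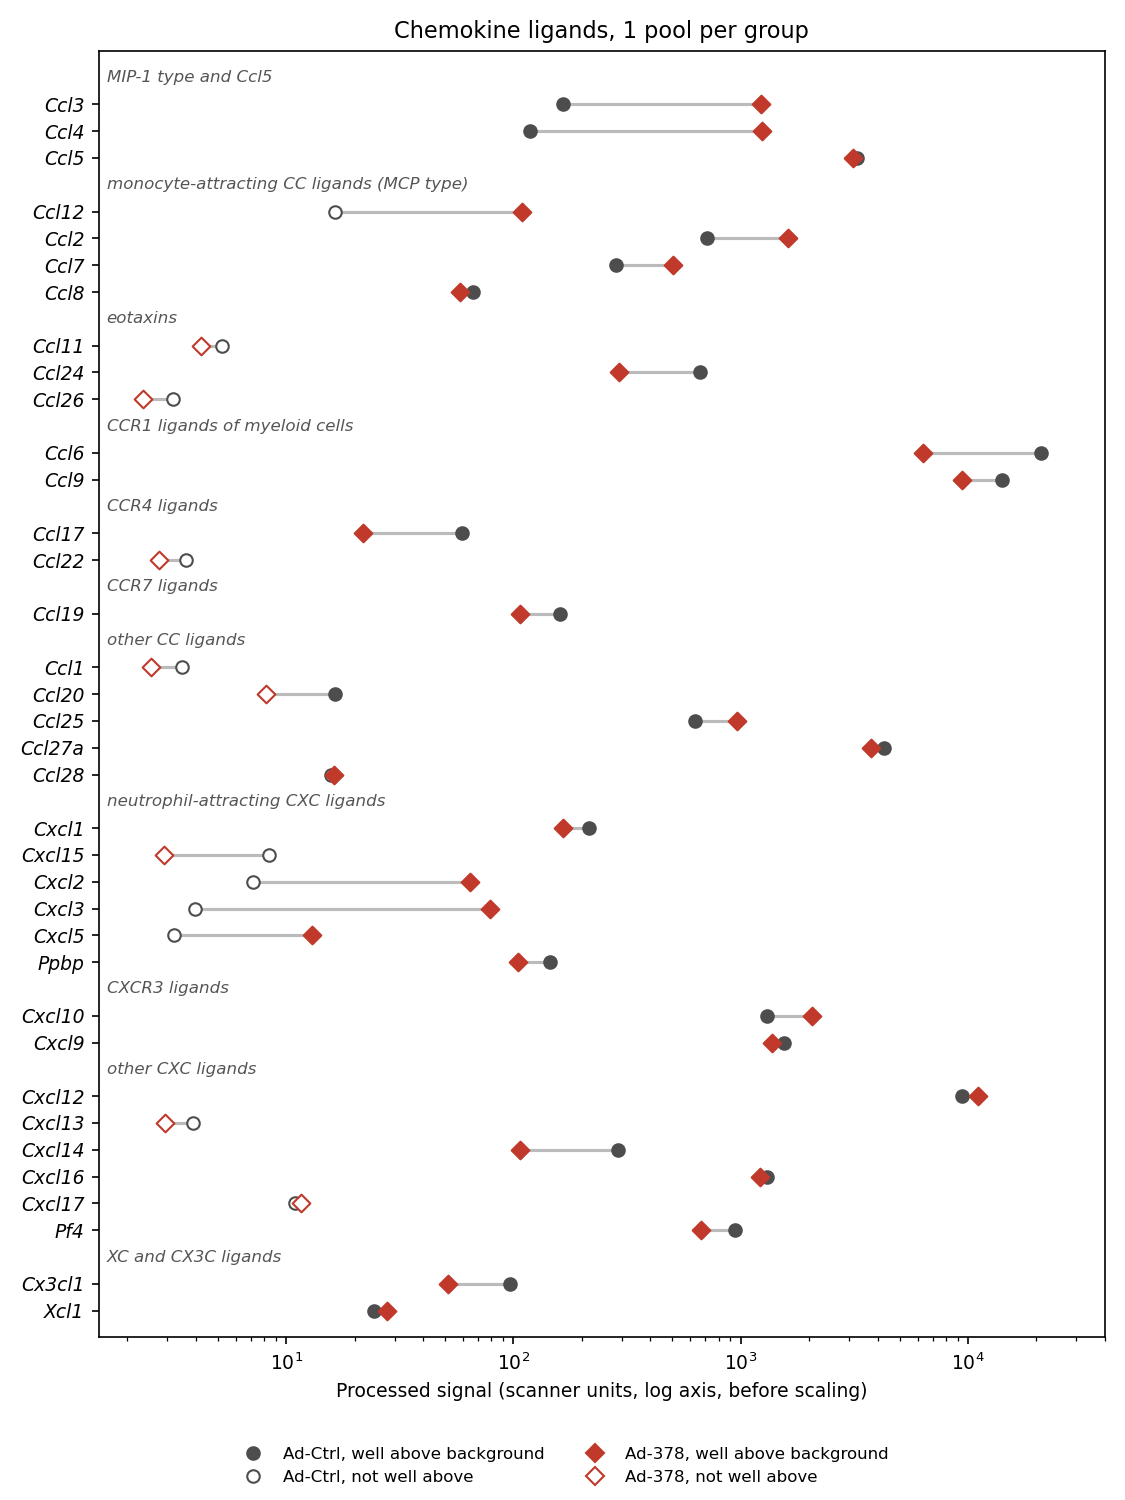
Processed signal of each of the 36 ligands in the Ad-Ctrl pool (grey circles) and the Ad-378 pool (red diamonds), on a log axis and grouped by role, with open symbols where the probe was not well above background. Ccl3, Ccl4, Ccl12, Cxcl2 and Cxcl3 show the widest gaps towards Ad-378, and Ccl6, Ccl17 and Cxcl14 are detected in both pools and lie towards Ad-Ctrl, while levels of different probes cannot be set against each other.

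Among ligands that attract neutrophils through CXCR2, 3 were detected in Ad-378 alone and 2 were measured in both pools. Cxcl3 read 3.96 in Ad-Ctrl, not above background, and 79.0 in Ad-378, higher by a bound of 5.98-fold (log2 scanner error 1.45). Cxcl2, or MIP-2, had 7.11 and 64.7, higher in Ad-378 by a bound of 4.90-fold (log2 scanner error 0.76). On the log2 scale the bound of Cxcl3 was 2.58, against 1.32 on the unsubtracted values and 1.27 after normexp, and that of Cxcl2 was 2.29, against 1.17 and 1.02. Cxcl5, made mainly by epithelial cells, was detected in Ad-378 alone, but at 12.9 against 3.21 it lay too close to background for a bound above 1. Cxcl1, or KC, had 216 and 165 and a difference of -0.19, within its scanner error of 0.21, and the platelet product Ppbp had 145 and 105 and a difference of -0.27. Cxcl15, or lungkine, was not well above background in either pool. Neutrophil markers gave 3 genes higher and 5 lower of 8, with a median of -0.30. Their summed level was 12.8 (Ad-Ctrl) against 14.5 (Ad-378), mostly from the bright probe of Csf3r (6668 and 6850, a difference of 0.24). The part of these markers in the results was not tested.

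Cxcl1, Cxcl2 and Cxcl3 belong to 1 gene cluster, and Cxcl1 lay within its scanner error while the other two were detected in Ad-378 alone. Their 250 bases before the transcription start are shown with those of Ccl3, which differed most among measured members with a promoter window. They are RefSeq sequences of build GRCm38.p6, at chr5:90890995-90891244 for Cxcl1, chr5:90903649-90903898 for Cxcl2 and chr5:90785851-90786100 for Cxcl3, all on the plus strand, and chr11:83649379-83649628 for Ccl3 on the minus strand. Each reads 5′ to 3′ towards the start, and capitals mark matches to an NF-kB type motif on either strand.
Cxcl1: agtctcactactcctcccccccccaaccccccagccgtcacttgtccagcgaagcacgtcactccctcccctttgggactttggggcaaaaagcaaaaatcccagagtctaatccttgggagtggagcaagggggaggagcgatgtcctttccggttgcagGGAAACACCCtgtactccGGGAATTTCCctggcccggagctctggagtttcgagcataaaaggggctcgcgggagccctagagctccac
Cxcl2: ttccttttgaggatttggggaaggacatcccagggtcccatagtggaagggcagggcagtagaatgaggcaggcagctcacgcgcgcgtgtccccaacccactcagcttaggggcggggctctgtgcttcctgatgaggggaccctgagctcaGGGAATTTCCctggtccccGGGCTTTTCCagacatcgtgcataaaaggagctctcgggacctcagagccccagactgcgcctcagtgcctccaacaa
Cxcl3: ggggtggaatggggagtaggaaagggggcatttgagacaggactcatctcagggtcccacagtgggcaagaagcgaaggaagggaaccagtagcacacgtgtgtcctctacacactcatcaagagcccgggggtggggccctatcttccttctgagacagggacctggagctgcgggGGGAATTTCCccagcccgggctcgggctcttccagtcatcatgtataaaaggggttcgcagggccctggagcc
Ccl3: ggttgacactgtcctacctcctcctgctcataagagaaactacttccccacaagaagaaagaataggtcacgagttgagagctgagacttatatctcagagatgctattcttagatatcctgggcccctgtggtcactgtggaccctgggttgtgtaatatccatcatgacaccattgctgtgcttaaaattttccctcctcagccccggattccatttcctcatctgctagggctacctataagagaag

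All 3 CXC genes held the motif, starting 71 and 89 bases before the start in Cxcl1, 78 and 97 in Cxcl2 and 73 in Cxcl3, and the window of Ccl3 held none. The match GGGAATTTCC occurred in each of the 3. Cxcl1 also held GGAAACACCC, a match on the opposite strand, and Cxcl2 held GGGCTTTTCC. The motif was found in 535 of 32851 windows of the reference table (250 bases before to 50 after the start, so longer than the stretches shown), or 1.63%, and in 6 of the 49 windows of the 45 members that the table holds. The other matches were in Ccl9, Ccl20 and Ccr3. No window was held for 14 members, among them the higher ligands Ccl2, Ccl4 and Ccl7, so these were not searched. The AP-1 letters TGACTCA, also searched on both strands, were in 6 of the 49 windows, belonging to Ccl27a, Ccl28, Cxcl9, Cxcl10, Ccr3 and Ccr4, against 5.20% of all windows, and overlapped no NF-kB type match there. The counts describe letters in a window and show no binding.

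Among ligands that were lower in the Ad-378 pool, Ccl6 differed most. Ccl6, a CC ligand of macrophages and other myeloid cells that acts on CCR1, read 20999 in Ad-Ctrl and 6312 in Ad-378, a log2 difference of -1.53 (scanner error 0.20). Its relative Ccl9, or MIP-1 gamma, had 14139 and 9438 and a difference of -0.38. Ccl17, or TARC, a dendritic cell product that attracts CCR4-bearing T cells, was dim, with 59.3 and 21.8 and a difference of -1.24 (scanner error 0.27), which was -0.45 on the unsubtracted values and -0.38 after normexp background correction. Cxcl14, made by epithelial and stromal cells, had 290 against 107, a difference of -1.24 that was -0.95 after normexp. Ccl24, or eotaxin-2, a macrophage ligand of CCR3 on eosinophils, had 665 and 293 and a difference of -0.98, just inside 2-fold. Kupffer cell markers moved the same way as Ccl6, Ccl9 and Ccl24: all 11 measured were lower (10 of 11 after normexp), with a median of -0.82 and a summed level of 137 in Ad-Ctrl against 73.6 in Ad-378, and Cd163 was not above background. Dendritic cell markers, which stand beside Ccl17, had a median of -0.39, with 6 of 8 lower. Their summed level was 17.4 against 21.3, mostly from the bright probe of Siglech (10999.8 and 13353, a difference of 0.48). In pooled liver RNA, fewer cells of a type and less RNA per cell cannot be told apart.

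The remaining measured ligands lay within 2-fold. Cxcl10, an interferon-induced ligand of CXCR3, had 1307 and 2069 and a difference of 0.87, whereas Cxcl9, also a CXCR3 ligand, had 1557 and 1369.9 and differed by 0.018, with a sign that turned under other settings. Cxcl12, the ligand of CXCR4 made by stromal and endothelial cells, had a difference of 0.44, and a probe for another transcript gave 0.39. Ccl25, a ligand of CCR9, differed by 0.82. The platelet product Pf4 (-0.28), the CCR7 ligand Ccl19 (-0.39), the membrane-bound Cx3cl1 (-0.69) and Cxcl16 (0.10), the lymphocyte product Xcl1 (0.40) and Ccl27a (0.0086, of either sign under other settings) were among the 16 ligands within 2-fold. Ccl19 and Ccl27a have near-identical copies in the mouse genome, so their probes may read these too. For platelets, 2 of 8 markers were measured in both pools, with a median of 0.13, 5 were not above background in either, and the summed level was 1.30 against 1.44. Ccl20, an attractant of CCR6-bearing cells, was above background only in Ad-Ctrl and higher there by a bound of 1.26-fold. Ccl28 was above background only in Ad-378, with a plain ratio of 1.19-fold. Its log2 difference of 0.26 lay within its scanner error of 0.48. Ccl1, Ccl11, Ccl22, Ccl26, Cxcl13 and Cxcl17, like Cxcl15, were not well above background in either pool.

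Neighbouring ligand genes moved together in places, but no ligand cluster moved as a whole. In the CC cluster that runs from Ccl5 to Ccl4 on chromosome 11 of the reference table (GRCm38.p6), the adjacent members Ccl6 and Ccl3 lay at -1.53 and 3.09. Ccl9 (-0.38), beside Ccl6, was lower too, and Ccl4 (3.59), beside Ccl3, was higher too. In the other chromosome 11 cluster, Ccl2 (1.37), Ccl7 (1.04) and Ccl12 were higher and Ccl8 was not, while Ccl11 and Ccl1 were not detected. In the chromosome 5 cluster, Cxcl3 and Cxcl2 were higher by their bounds, while Cxcl1 (-0.19), next to Cxcl2, and Ppbp (-0.27) and Pf4 (-0.28), on the other side of Cxcl3, were within 2-fold. The CC receptor cluster of chromosome 9 leaned the other way, with Ccr9 the exception, although the value of Ccr3 (-0.05) turned sign under some settings.

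**Figure D2:**
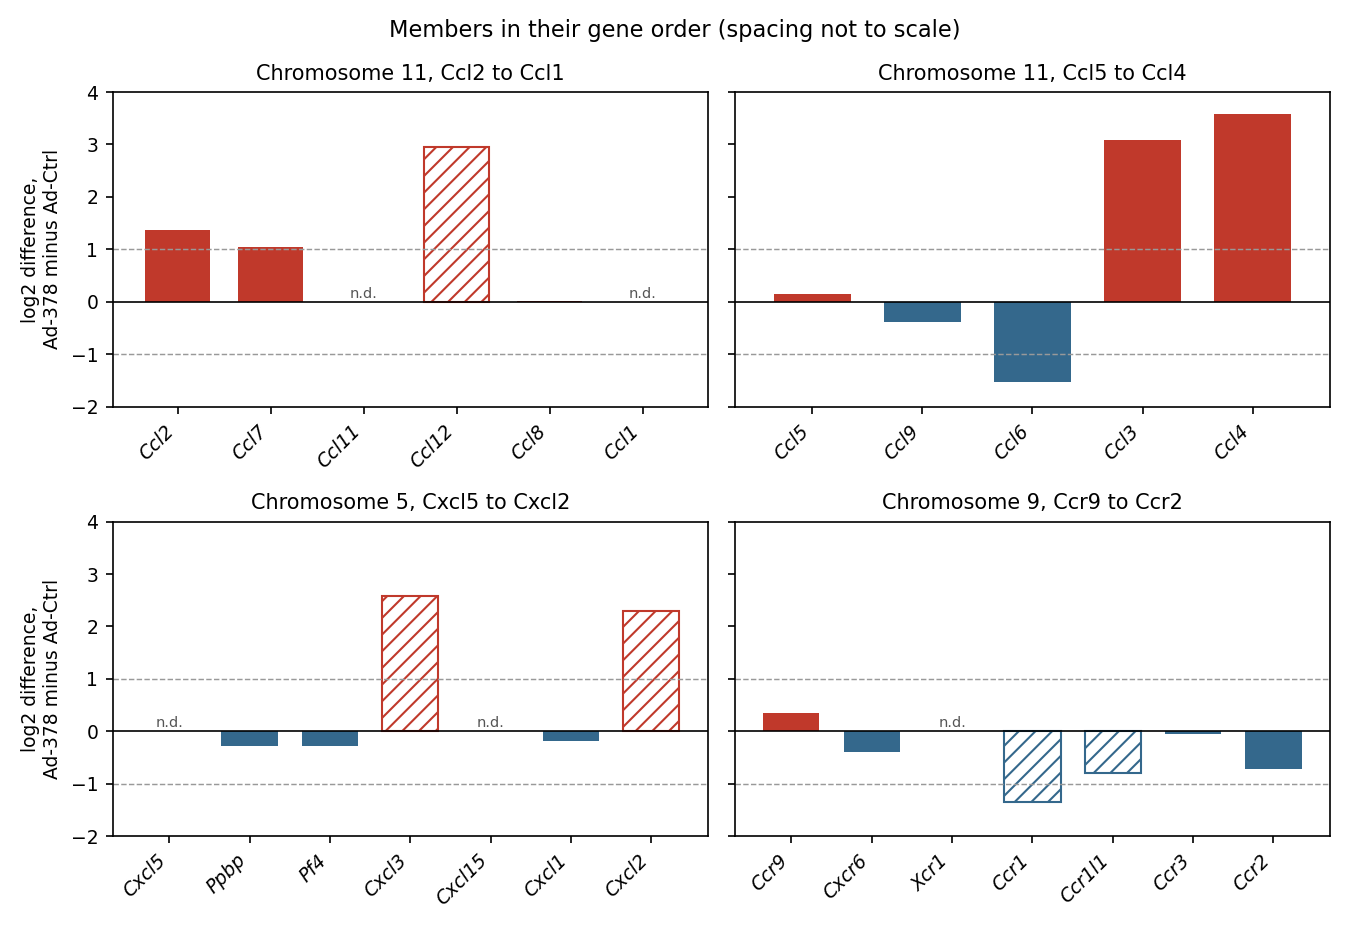
The log2 difference of cluster members (Ad-378 minus Ad-Ctrl, 1 pool each) in the order of the genes, with hatched bars for bounds of genes detected in 1 pool only, n.d. where no value or bound could be set, and dashed lines at 2-fold. Ccl6 at -1.53 stands next to Ccl3 at 3.09 and Ccl4 at 3.59, and Ccr9 at 0.35 is the receptor above 0, with Ccr3 at -0.05 changing sign under some settings.

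Receptors of the inflammatory CC ligands lay lower in Ad-378. Ccr1, which binds Ccl3, Ccl5, Ccl6 and Ccl9, was above background only in Ad-Ctrl, at 33.3 against 7.60. It was lower in Ad-378 by a bound of 2.55-fold. Among all genes seen only in Ad-Ctrl, 37.3% had a bound of at least 2-fold. On the unsubtracted values the dim Ccr1 probe differed by -0.38. Its relative Ccr1l1 was lower by a bound of 1.72-fold (22.5 against 3.69). Ccr2, the receptor of Ccl2, Ccl7 and Ccl12 on monocytes, had 98.4 and 52.0 and a difference of -0.72, which was -0.30 after normexp. Ccr8, carried by regulatory and memory T cells, had 179.8 and 72.0 and a difference of -1.12, which was -0.72 after normexp.

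The other CC receptors differed little or were near background. The eosinophil receptor Ccr3 lay at -0.05, with its sign turning under 1 or more of the other settings, Ccr7 of dendritic cells and naive T cells at -0.17 and the gut-homing receptor Ccr9 at 0.35. Ccr6 was just above background in Ad-378 only, at 13.9 against 11.6, with a bound of 1.06-fold. Ccr4 and Ccr10 were not well above background in either pool.

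Of 4 CXC receptors measured in both pools, 1 was at least 2-fold lower. Cxcr4, the receptor of Cxcl12 on most leukocytes, had signals of 289 and 92.8 and a log2 difference of -1.43 (scanner error 0.21), which was -0.97 after normexp. Cxcr6, the Cxcl16 receptor of liver NKT and T cells, differed by -0.39 and -0.38 at its 2 probes, and Cxcr3, the receptor of Cxcl9 and Cxcl10, by -0.28. Cxcr1 lay at 0.043, and the sign of so small a value turned with the scaling. Cxcr2, the neutrophil receptor of Cxcl1, Cxcl2, Cxcl3 and Cxcl5, was not above background in either pool, with signals of 6.60 and 2.45. The B cell receptor Cxcr5 was just above background in Ad-378 only, at 15.4 against 12.2. Cx3cr1, the Cx3cl1 receptor of monocytes and NK cells, had 288 and 173 and a difference of -0.53, and Xcr1, the dendritic cell receptor of Xcl1, was not above background.

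The atypical receptors were led by Ackr3, which binds and removes Cxcl12. It read 215 in Ad-Ctrl and 37.4 in Ad-378, a log2 difference of -2.32 (scanner error 0.24), the lowest value among the 37 members measured in both pools. The probe is dim in Ad-378, and the difference was -1.46 on the unsubtracted values and -1.24 after normexp. Ackr1, found on red cells and venules, differed by -0.48 and Ackr2, a scavenger of inflammatory CC ligands, by 0.23. Ackr4 was near background, with 11.4 and 12.5. Sinusoidal endothelial markers had a median of -0.23, with 12 of 14 lower and a summed level of 65.6 against 54.7, and 0 were 2-fold apart. Stellate cell and fibroblast markers had a median of -0.91, with 12 of 12 measured genes lower (11 on the unsubtracted values) and a summed level of 84.2 against 43.2, and Des was not above background. The part of these cells, and of the Kupffer cell markers given above, in the receptor values was not tested.

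**Figure D3:**
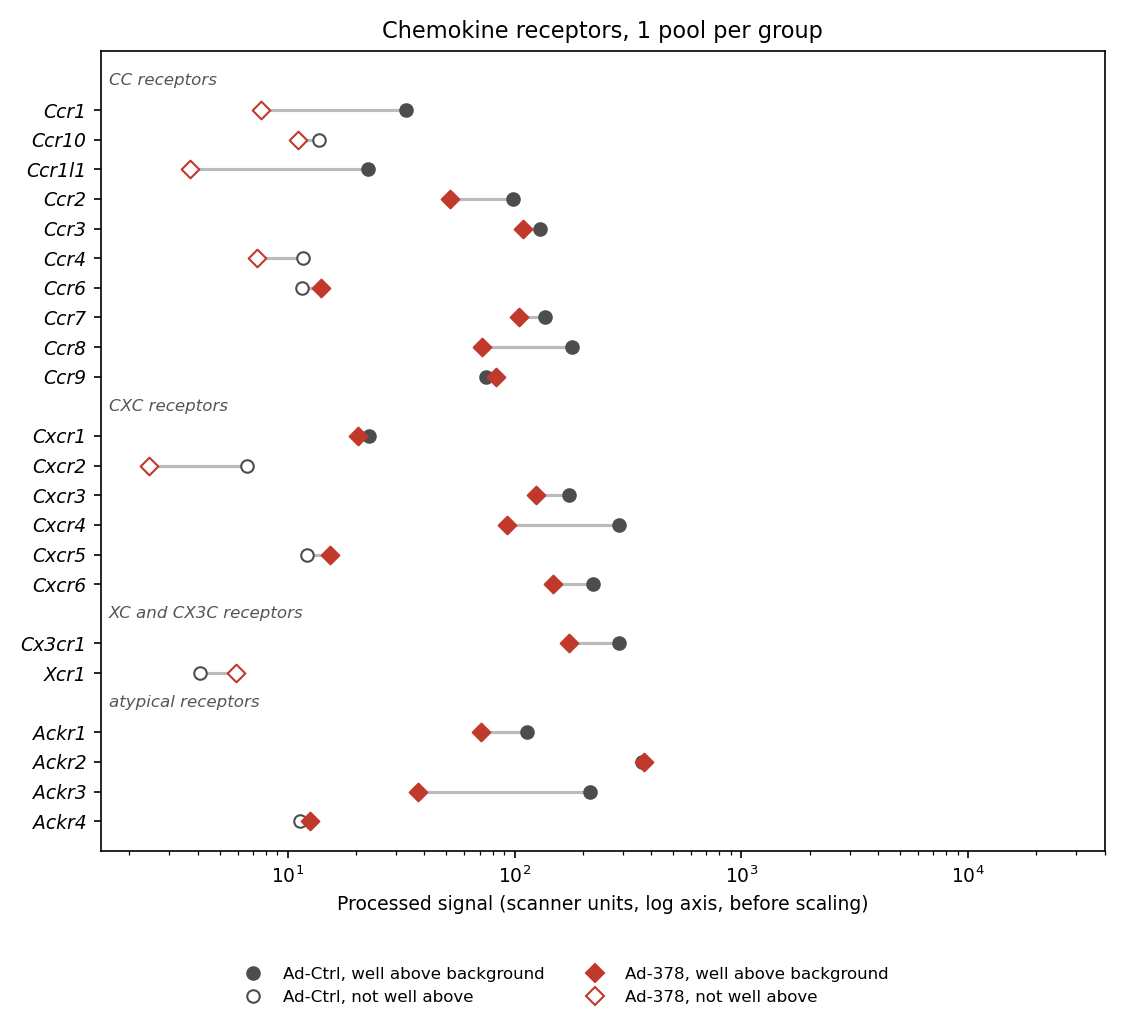
Processed signal of 22 of the 23 receptors in the Ad-Ctrl pool (grey circles) and the Ad-378 pool (red diamonds), on a log axis and grouped by role, with open symbols where the probe was not well above background. Ackr3, Cxcr4 and Ccr8 are detected in both pools and lie at least 2-fold towards Ad-Ctrl, Ccr1 is detected in Ad-Ctrl alone, and no receptor measured in both pools exceeds a difference of 0.35.

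Read by ligand and receptor, directions differed for some pairs and were shared by others. Ccl3 (3.09) was higher while Ccr1, which binds it, was lower by a bound that fell inside 2-fold on the unsubtracted values and after normexp. Of the other Ccr1 ligands named, Ccl6 (-1.53) and Ccl9 (-0.38) were lower like Ccr1, and Ccl5 lay at 0.14. Ccl2 (1.37), Ccl7 (1.04) and Ccl12 (by its bound) were higher while Ccr2 lay at -0.72. Along the Cxcl12 axis, the ligand lay at 0.44, Cxcr4 at -1.43 and Ackr3 at -2.32. Cxcl16 (0.10) with Cxcr6 (-0.39), and Cxcl9 (0.018) with Cxcr3 (-0.28), were closer together. Cxcl10 (0.87), the other measured CXCR3 ligand, lay further from Cxcr3. Cx3cl1 (-0.69) and its receptor Cx3cr1 (-0.53) were both lower. No test of these pairings was possible with 1 array per group.

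Genes around the chemokine system were taken from lists chosen with earlier results of these data known. Among 17 inducers of chemokine genes, 8 were measured in both pools, 3 were at least 2-fold higher and 0 lower, where 2.83% of all genes were higher and 4.52% lower. These were Il6 (33.4 and 547, a difference of 4.24 that was 2.82 after normexp), Il1b (267 and 1180.4, 2.34) and Il10, which also restrains inflammation (1.47, and 0.90 after normexp). Tnf was above background in Ad-378 only, higher by a bound of 19.6-fold on the processed signal, which was not recomputed under the other settings. Of the NF-kB subunits and feedback genes, which carry the signal of Tnf and Il1b to many chemokine promoters, 1 of 15 was 2-fold higher, the inhibitor Nfkbie (1.13), and 0 lower, and after normexp 0 were higher. The list median was 0.054, and it was -0.00044 under loess normalization. Genes that act downstream of chemokine receptors leaned lower, with 4 of 29 at least 2-fold lower, 1 higher and a median of -0.36. On the unsubtracted values and after normexp 2 of 29 were at least 2-fold lower. The lowest were Rgs2 (-1.44) and Rgs1 (-1.30), which shorten G protein signals, followed by the G protein subunit Gng2 (-1.15). Dock2, a leukocyte Rac activator (-1.01), and the kinase gene Ptk2b (1.12, or 0.80 as a mean over its probes) were named after their values were seen. Gng2 and Dock2 lay inside 2-fold on the unsubtracted values. Of 15 adhesion partners, 2 were at least 2-fold lower and 0 higher, namely Vcam1 (-1.74), an endothelial ligand for leukocyte integrins, and the integrin subunit Itgb2 (-1.12). Among other cell markers, the medians were 0.39 for B and plasma cells, 0.50 for cholangiocytes, 0.18 for mast cells and basophils (2 of 8 measured) and 0.17 for hepatocytes, the last turning to -0.03 under quantile normalization.

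**Figure D4:**
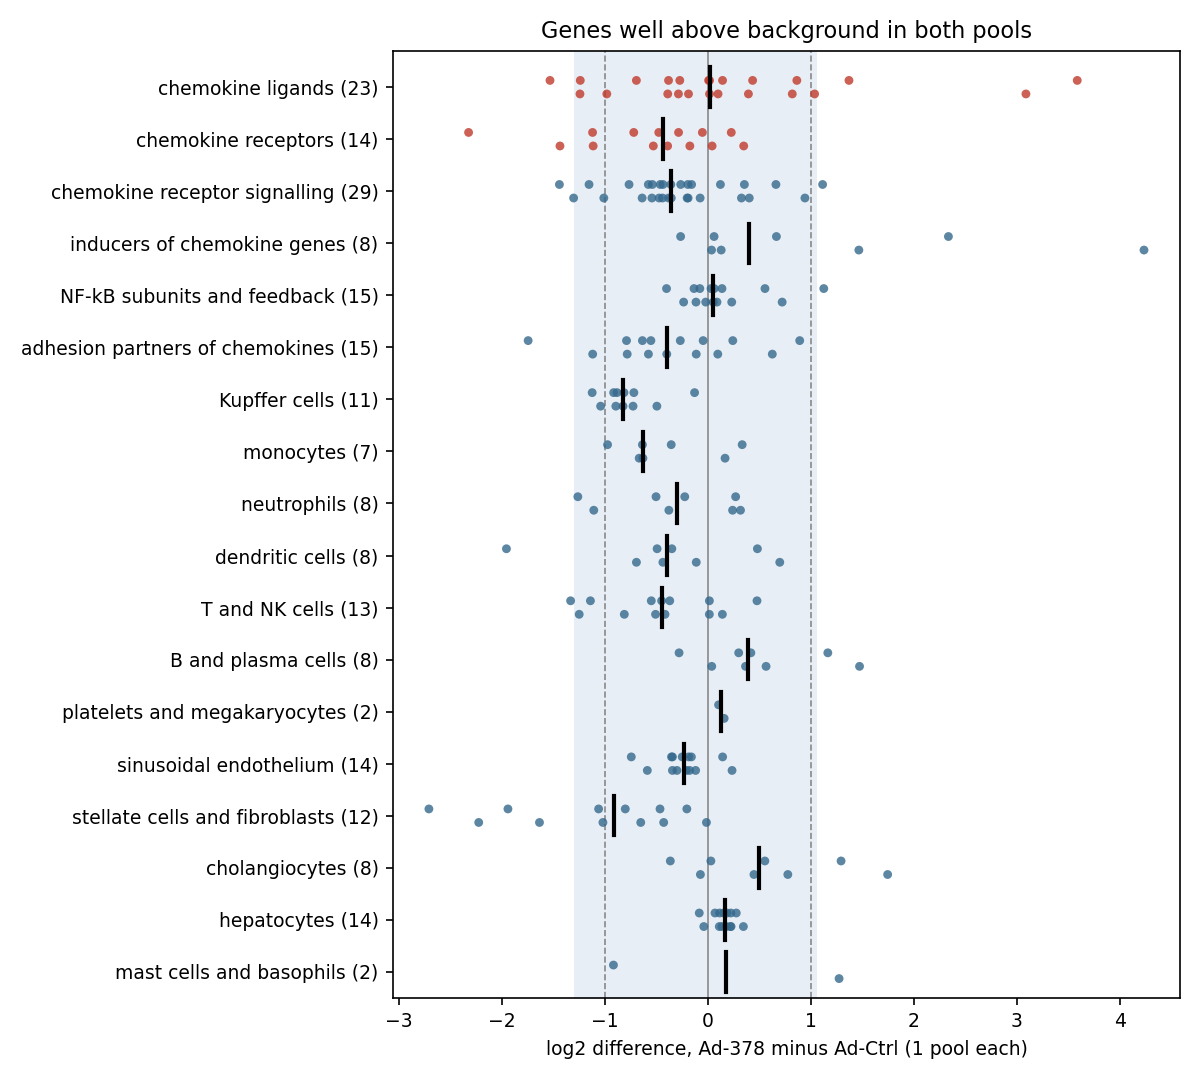
The log2 difference (Ad-378 minus Ad-Ctrl, 1 pool each) of every gene measured in both pools, for chemokine ligands and receptors (red) and the pathway and cell marker lists (blue), with the number of genes in brackets, a black bar at the median, dashed lines at 2-fold and a shaded band from -1.29 to 1.05 that holds the central 95% of all genes. Ligands spread widely around a median of 0.018, receptors centre on -0.43, and Kupffer cell markers on -0.82.

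Some members kept their side of 2-fold under each of the 7 other ways of treating the signals. Those named here were Ccl2, Ccl3 and Ccl4 among the higher ligands, Ccl6 among the lower ones, and Ackr3 among the receptors named here. Leaving out the background filter and averaging over probes could not move these members, since each has 1 probe. The bounds of Ccl12, Cxcl2 and Cxcl3 also stayed past 2-fold under the 5 settings in which bounds were recomputed, whereas that of Ccr1 did not on the unsubtracted values or after normexp. Genes with more than 1 probe above background in both pools, 6 in all, had probes at most 0.19 apart.

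**Figure D5:**
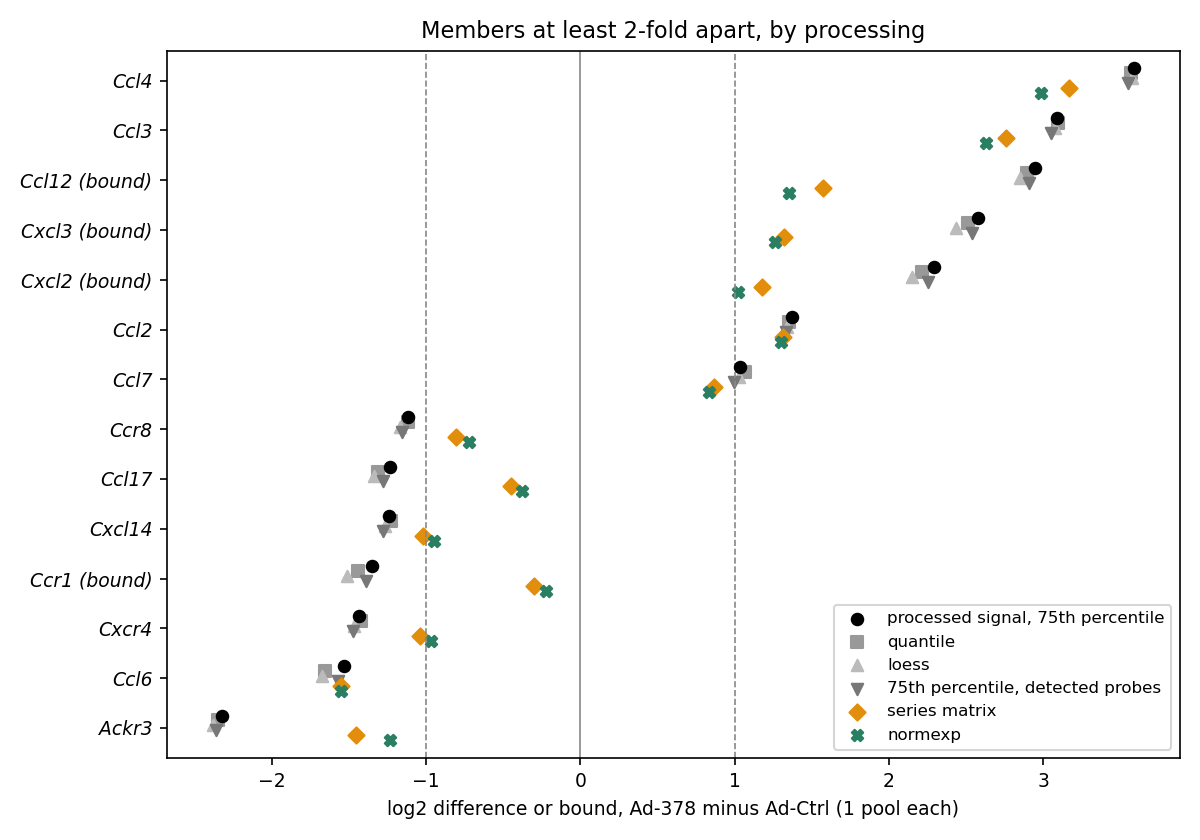
The log2 difference, or the bound where marked, of 14 of the 15 members at least 2-fold apart, under the scaling used here (black) and 5 others, with dashed lines at 2-fold. Scaling moves the points little, while the unsubtracted series matrix values (orange) and normexp (green) bring dim members such as Ccl17, Ccr1 and Ccl12 closer to 0.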

How the data were processed

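RNA of 2 liver pools, 1 per group, was hybridised to 1-colour Agilent arrays. Per the file headers, the deposited processed signal is an intensity on a linear scale, background-subtracted and detrended within the array, without scaling between arrays. The deposited scanner files also hold flags, other values of 0 or 1, for background, saturation and outliers. The series matrix the authors deposited holds intensities equal to the raw median signal in 100% of values. Agilent Feature Extraction is given as version 9.1 in the submitters' processing notes and as 11.0.1.1 in the file headers. Per the labels' protocols, RNA was prepared with a kit for blood that includes globin removal, although the tissue is liver.

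Outlier and control spots were left out, log2 signals were averaged over the spots of a probe, and each array was scaled to its 75th percentile. Probes were named by matching transcript identifiers, without versions, to a RefSeq table of GRCm38.p6 (27234 of 39429 probes), whereas mm9 is the build in the headers. Each gene was read from the brightest of its probes that cleared background in both pools. The threshold was 2-fold. The number of arrays limits the precision. Full values are given for members at least 2-fold apart or bounded so, and for leading members of each role. The members, gene lists and promoter motifs (an NF-kB type motif, shown by its matches, and AP-1) were chosen with earlier results of these data known. The alternatives were quantile and loess normalization, the 75th percentile over detected probes, series matrix values, normexp with offset 50 (limma 3.58.1), no background filter, the mean over probes, and 1.5-fold and 3-fold thresholds. The steps were tested on simulated data. Python 3.11.15, numpy 2.4.6, pandas 2.3.3 and statsmodels 0.14.6 were used. Of the receptors, 1 is counted but not reported here by name, and nor is 1 cell marker.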

Additional observations from a re-analysis of the deposited data

How the results depend on the processing

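No paired analysis was possible because 1 array stands for each pool. Outlier spots were left out of the normexp fit, a choice made after seeing the data, since 1 such spot distorted it. The ligand median of 0.018 turned sign under quantile normalization (-0.046), loess (-0.062) and the 75th percentile of detected probes (-0.023). Without the background filter, 8 ligands were higher, 7 receptors lower, and 1058 and 1165 of all genes higher and lower, since dim probes enter. After normexp, 1 ligand and 2 receptors were lower, 0 receptors had a bound of at least 2-fold, and 200 and 353 of all genes were higher and lower. On the series matrix values 0 receptors had a bound of at least 2-fold, and 222 and 394 of all genes were higher and lower. The cause was not tested. At 1.5-fold, 5 ligands were lower and 2 receptors lower by a bound, and 1255 and 1723 of all genes higher and lower. At 3-fold, 2 ligands were higher and 0 lower, 1 receptor lower and 0 by a bound, and 106 and 201 of all genes higher and lower. Of 97 values of single members under other settings, 87 moved by less than the 95% range of the scanner error and 10 by more, and 0 changed sign. Among the 87 are values fixed in advance, and large moves of dim probes whose scanner error is wide. After normexp the log2 bound of Ccr1 went from -1.35 to -0.23 (scanner error 0.69). That of Cxcl2 went from 2.29 to 1.02 (0.76), and that of Cxcl3 from 2.58 to 1.27 (1.45). For members with a log2 difference, leaving out the background filter or averaging over probes returned the same value, since 1 probe of each counted. Members inside 2-fold that changed sign were Ccl8, Ccl27a, Cxcl9, Ccr3 and Cxcr1, all near 0. Dim probes are limited by background.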

Other observations

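For each of 3 receptor genes, Ccr8, Cx3cr1 and Ackr2, another probe gave no level. These probes read from 3.36 to 7.15 in the control pool and at most 2.60 in the miR-378 pool, not well above background, while the brighter probe of each gene was detected in both pools. The values of these receptors therefore rest on 1 probe each.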
